A study of Mus musculus with 12 samples.

Results

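Integrins and surface markers that separate tissue-resident and ILC1-like lymphocytes from mature circulating cells were followed in NK and CD8 T cells taken from mouse tumours. The 8 genes, in known use as residency or maturation markers, were chosen with earlier results of these data in view, out of 54232 genes in the count table: the integrin alpha chains Itga1, Itga2, Itgae and Itgam, the beta chain Itgb7, and the surface proteins Cd69, Cd27 and Cd200r1. All 8 passed the filter on low counts, which kept 13279 genes with a mean normalised count of at least 10.

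RNA was sequenced from 12 Smart-seq2 libraries of 300 sorted cells each, harvested 8 to 10 days after MC38 cells, a mouse colon adenocarcinoma line, had been injected under the skin of both flanks. NK cells were gated as CD45+ CD3ε- NK1.1+ and CD8 T cells as CD45+ CD3ε+ CD8a+. The mice were wild type C57BL/6N (WT), TYK2-deficient on that background (KO, labelled TYK2KO) or carriers of a kinase-inactive TYK2 (KE, labelled TYK2KE), sex-matched and 6 to 12 weeks old. TYK2 is a JAK kinase that relays interferon and IL-12 family signals. Neither mutation was restricted to a cell type, so the tumour-bearing host carried it as well. Each of the 6 groups had 2 libraries, and the labels do not say whether these came from separate animals, so p-values measure the spread between libraries, which may be technical.

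Integrins are pairs of an alpha and a beta chain that hold cells to matrix or to other cells. Itga1 (CD49a) and Itga2 (CD49b) pair with Itgb1 and bind collagens, and in mouse liver and other tissues CD49a is used to mark ILC1 and resident NK cells, whereas CD49b marks conventional NK cells. Itgae (CD103) pairs with Itgb7 and binds E-cadherin on epithelium, Itgb7 with Itga4 directs lymphocytes to gut, and Itgam (CD11b) with Itgb2 is shared by mature NK cells and myeloid cells. CD69 holds cells in tissue by removing S1PR1 from the surface, CD27 is a co-stimulatory receptor lost as mouse NK cells mature, and CD200R1 is an inhibitory receptor used as a marker of ILC1. RNA levels of these genes say nothing directly of the protein on the surface.

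Totals ran from 10378761 to 14732882 counts a library, with 12776 to 14015 genes detected. Levels are given as CPM, the library-size scaled counts of the TMM method, in which 3 counts, taken as the floor, correspond to 0.218 to 0.276 CPM a library. The gates were checked against markers: 10 NK genes summed to between 10502 and 14913 CPM in NK libraries and between 1151 and 1885 CPM in CD8 libraries, and 12 T cell genes to between 14252 and 19563 CPM in CD8 and between 745 and 1183 CPM in NK libraries. Cd8a was at 2.7 to 4.52 CPM in the NK libraries, near 0 beside 2825 to 4086 CPM in CD8 libraries. Both WT NK libraries also held macrophage RNA, with 14 markers summing to 19501 and 17964 CPM. NK KO library 1 had 8190 CPM of these markers, against 224 to 652 CPM in the other 3 NK libraries. Its markers were not those of the WT libraries in like parts, since the macrophage receptor gene Csf1r was far lower, as given below. The 9 dendritic cell markers, Itgax among them, were at 1215 to 1857 CPM in the WT NK libraries and NK KO library 1. The other NK libraries held 339 to 499 CPM, and 4 or 5 of the 9 were at 0 in each NK library. The 6 platelet markers were at 167 and 211 CPM in WT and 21.6 to 121 CPM in mutant NK libraries, with 4 or 5 of the 6 at 0 in each. Of these, the integrin chain Itgb3 alone was at 43.0 and 38.0 CPM in WT and 21.5 to 120 CPM in mutant NK libraries. Because these libraries stand apart by genotype, each NK result below is set beside them where it rests on them. Tyk2 itself ran from 46.7 to 119 CPM with no gap between genotypes, which leaves genotype unchecked by its own transcript.

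The sequences around the start of the 3 integrin chains called higher in NK cells are shown because they carry the calls towards NK cells. They come from RefSeq (GRCm38.p6) and run 5′ to 3′ from 250 bases before to 50 after the annotated start. Capitals mark each copy of GAGGAAG or its reverse complement CTTCCTC, the letters typical of PU.1, an ETS factor of myeloid and lymphoid cells. Itga2 lies on the minus strand at chr13:114932051-114932350, Itgam on the plus strand at chr7:128062390-128062689 and Itgb7 on the minus strand at chr15:102231886-102232185.
Itga2: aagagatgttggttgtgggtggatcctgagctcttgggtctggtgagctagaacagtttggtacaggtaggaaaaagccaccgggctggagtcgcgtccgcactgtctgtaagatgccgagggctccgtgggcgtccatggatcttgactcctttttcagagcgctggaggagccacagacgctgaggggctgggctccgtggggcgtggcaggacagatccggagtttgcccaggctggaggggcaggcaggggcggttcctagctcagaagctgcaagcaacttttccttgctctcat
Itgam: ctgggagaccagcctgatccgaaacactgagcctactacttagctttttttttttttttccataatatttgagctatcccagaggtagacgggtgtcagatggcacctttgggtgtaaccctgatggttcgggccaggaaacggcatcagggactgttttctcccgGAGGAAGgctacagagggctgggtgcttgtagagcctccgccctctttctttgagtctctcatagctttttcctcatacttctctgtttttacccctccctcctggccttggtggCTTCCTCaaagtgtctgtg
Itgb7: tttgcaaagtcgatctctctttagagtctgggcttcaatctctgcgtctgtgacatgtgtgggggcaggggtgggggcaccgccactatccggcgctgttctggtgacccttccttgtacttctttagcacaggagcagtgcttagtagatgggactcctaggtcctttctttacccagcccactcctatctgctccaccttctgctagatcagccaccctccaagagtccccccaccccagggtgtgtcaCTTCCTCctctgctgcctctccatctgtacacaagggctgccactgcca
Of the 8 genes, 5 had a promoter entry, and 2 of these, Itgam and Itgb7, held the motif. In Itgam the copies began 84 bases before and 31 bases after the start, and in Itgb7 1 base after it. Among 32817 promoters of this length 13.6% held the motif on either strand. The motif was added after 5 others had given no match in any of the 5 promoters: TTCNNNGAA, the STAT site GAS, which 8.29% of all promoters hold, the interferon element ISRE (3.43%), TGTGGT for RUNX factors (16.8%), TGANTCA for AP-1 (7.81%) and CCGGAAGT for ETS factors (3.89%). No match says only that these letters are not in this window.

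The first comparison asked which of the markers tell NK from CD8 T cells taken from such tumours. Averaged over the genotypes, Itga2, Itgam and Itgb7 were higher in NK cells and Cd27 and Cd200r1 were higher in CD8 T cells, while Itga1 and Cd69 did not pass the test and Itgae could not be given a meaningful fold. That is 3 genes called higher and 2 lower of 8, beside 1.97% and 2.5% of the 13279 genes tested, or 4.47% in both directions. DESeq2, the alternative tool, called 13% of the genes it gave an FDR. A gene was called when edgeR's quasi-likelihood test gave an adjusted p (FDR) under 0.05 and a log2 fold change of at least 1 in size.

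**Figure D1:**
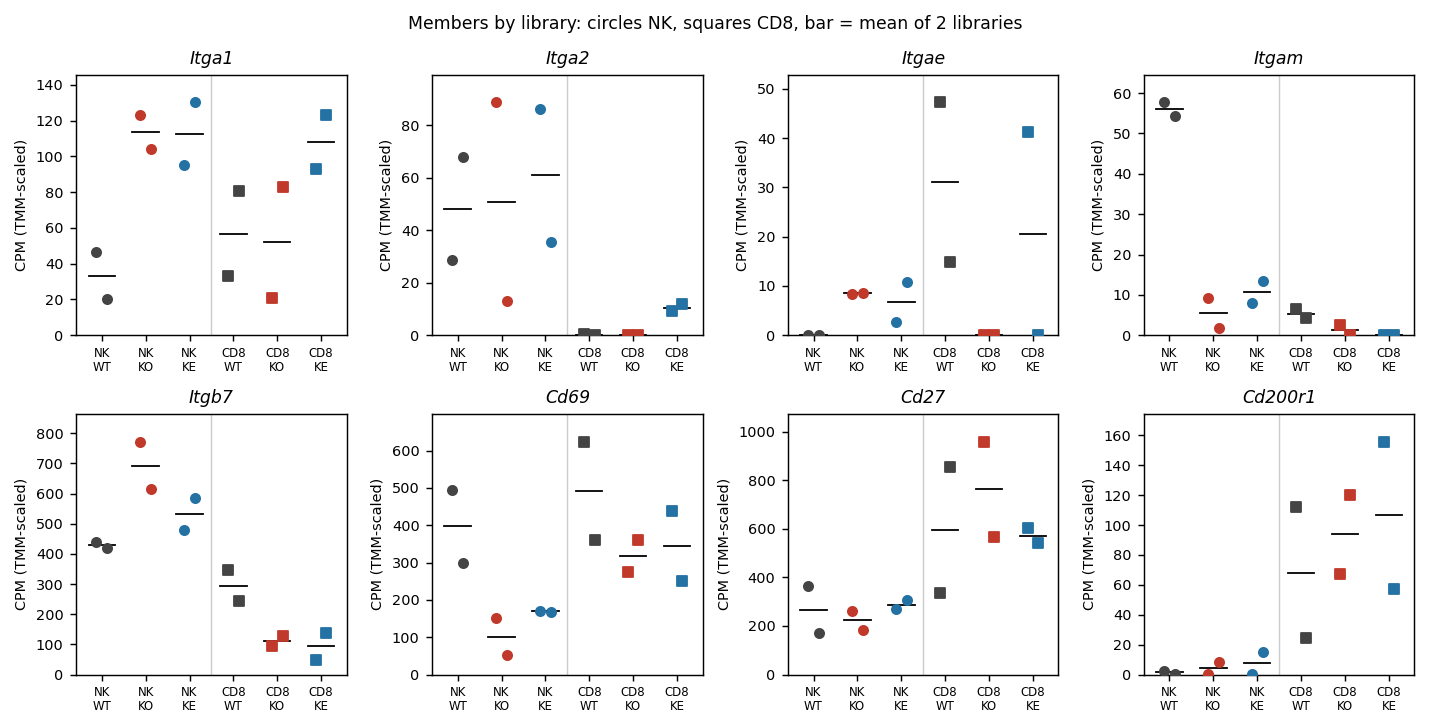
CPM of the 8 genes in each of the 12 libraries, with circles for NK, squares for CD8 T cells and a bar at the mean of the 2 libraries of a group. Itga2 and Itgb7 lie higher in every NK library than in any CD8 library and Cd200r1 lower, the mutant Itgb7 values lie above WT in NK and below WT in CD8 cells (neither called by edgeR), and Itgam is above 50 CPM in the WT NK libraries and under 14 CPM elsewhere.

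Itga2, the alpha chain CD49b of a collagen receptor, stood at 28.6 and 67.7 CPM in WT, 88.6 and 13.0 CPM in KO and 86.1 and 35.6 CPM in KE NK libraries. CD8 libraries held 0.297 and 0.218 CPM in WT and 0.153 and 0.0830 CPM in KO, or 4, 3, 2 and 1 counts, and 9.09 and 11.8 CPM in KE. All 6 NK libraries lay above all 6 CD8 libraries, although NK KO library 2, at 13.0 CPM, was close to CD8 KE library 2. The log2 fold change of NK against CD8 was 6.22 (SE 0.75, FDR = 8.1e-04), a call that held when any library was left out. Within genotypes, where edgeR called 0.776% of all genes in WT, 0.904% in KO and 0.7% in KE, it was 7.50 in WT (FDR = 0.035), 8.63 in KO (FDR = 0.022) and 2.54 in KE, where it was not called (FDR = 0.47). The call in WT held in 2 of the 12 fits with 1 library left out, those without NK KO library 1 or 2 (FDR up to 0.22 in the others), and that in KO in all but those without NK KO library 1, CD8 KO library 1 or CD8 KO library 2 (FDR = 0.066, 0.15 and 0.18). In WT the sums over the 2 libraries were 1220 counts in NK and 7 in CD8 cells, a ratio of 191 with a counting interval of 92.3 to 475. In KO they were 1309 and 3 counts, a ratio of 416 (142 to 2021). Both CD8 KO libraries were under the floor of 3 counts, so the KO fold is no exact size. Without NK KO library 1 and the WT groups, and so without the libraries rich in macrophage RNA, the value was 4.61 and fell just short of the threshold (FDR = 0.051).

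Itgb7 is the beta chain that CD103 pairs with and is part of the gut-homing receptor α4β7. Of the 8 genes it had the highest median per length over 6 NK libraries, 198 CPM per kb of exon, against 49.7 over 6 CD8 libraries. In the WT NK group its mean, 161 CPM per kb, was below those of Cd69 (235) and Cd27 (171). Itgb7 levels in NK libraries were 441 and 421 CPM (WT), 772 and 614 CPM (KO), and 480 and 584 CPM (KE). The CD8 libraries gave 346 and 243 CPM (WT), 94.3 and 128 CPM (KO), and 49.8 and 138 CPM (KE). The lowest NK library was above the highest CD8 library. Of the 8 genes, 2 (Itga2 and Itgb7) were higher in all 6 NK than in all 6 CD8 libraries and 1 (Cd200r1) was lower, beside 2.03% and 2.83% of all genes. The log2 fold change over genotypes was 1.90 (SE 0.24, FDR = 0.0012), and it held when any library was left out. Within WT it was 0.55 (SE 0.41, FDR = 0.67, not called), within KO 2.64 (SE 0.43, FDR = 0.018) and within KE 2.5 (SE 0.43, FDR = 0.028). The call in KO was lost without any 1 of the KO libraries (FDR from 0.053 to 0.17), and that in KE without NK KE library 1 or 2 or CD8 KE library 1 (FDR = 0.11, 0.11 and 0.062).

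Itgam, the alpha chain CD11b, was at 57.7 and 54.3 CPM in WT, 9.23 and 1.85 CPM in KO and 7.92 and 13.4 CPM in KE NK libraries. Among CD8 libraries it was at 6.45 and 4.28 CPM in WT and 2.53 and 0.0830 CPM in KO, and neither KE library had a count. NK and CD8 libraries overlapped through NK KO library 2. The gene was called higher in NK cells (FDR = 0.036), and the fitted log2 value of 5.18 (SE 1.18) is no measure of size since 1 group was at 0. Summed counts gave 1393 against 146 in WT, a ratio of 10.4 (counting interval 8.80 to 12.5), and 143 against 34 in KO, a ratio of 4.01 (2.74 to 6.02), and in KE the level was at least 45.6-fold higher in NK cells, taking 3 counts a library as the floor for CD8. The call did not hold without the WT groups and NK KO library 1 (FDR = 0.35), and with 1 library left out it held only without NK KO library 2 or CD8 KO library 1. The exons of Itgam share 3450 of 4926 bases with Gm49368, a gene model on the same strand with 24 counts in all. Reads in the shared bases may therefore have gone uncounted, and whether this was alike in every library was not tested.

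**Figure D2:**
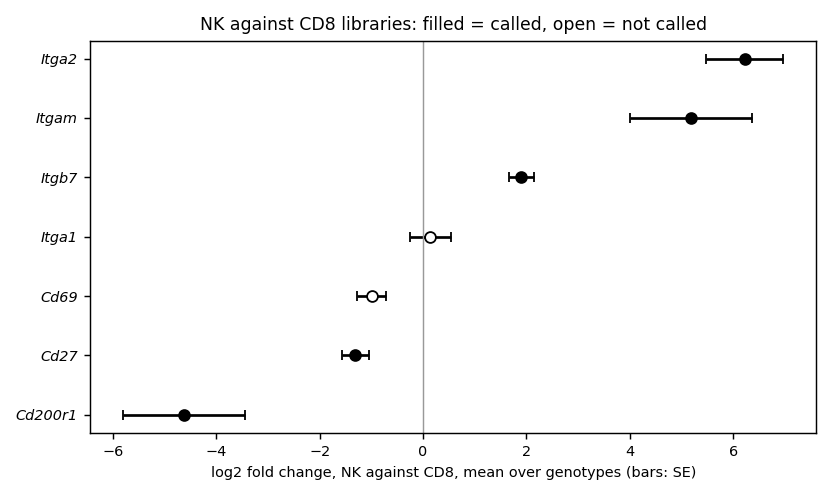
log2 fold change of NK against CD8 libraries averaged over the 3 genotypes, with the SE as bars, for 7 of the 8 genes. Filled points are called: Itga2, Itgam and Itgb7 to the right of 0, Cd27 and Cd200r1 to the left. Itgae is left out since 2 of its groups are at 0, and the Itgam value depends on a group at 0.

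Cd200r1, the inhibitory receptor for CD200, was at 112 and 24.6 CPM in WT, 67.6 and 120 CPM in KO and 156 and 57.6 CPM in KE CD8 libraries. In NK cells it was at 2.51 and 0.231 CPM in WT, 0.0782 and 8.5 CPM in KO and 0.276 and 15 CPM in KE, so that 3 of 6 NK libraries were at or under 3 counts. Every CD8 library was above every NK library, and the 2 libraries of each NK group differed by over 10-fold. This gave a log2 fold change of -4.63 (SE 1.17, FDR = 0.049), and leaving out any library other than NK KO library 2 took it over the threshold (FDR from 0.050 to 0.15). Nor was it called without the WT groups and NK KO library 1 (-3.64, FDR = 0.25). Its ligand Cd200 was also called lower in NK than in CD8 cells (FDR = 0.0024), with no fold given since 2 NK groups were at 0. It had 1 count in each WT NK library, and it was at 1.93 and 1.81 CPM in WT and 26.6 to 96.7 CPM in mutant CD8 libraries, so the WT CD8 libraries lay far below the mutant ones.

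Cd27 was at 337 and 853 CPM in WT, 958 and 567 CPM in KO and 604 and 541 CPM in KE CD8 libraries. In NK cells it was at 363 and 171 CPM in WT, 261 and 184 CPM in KO and 268 and 307 CPM in KE. Only CD8 WT library 1 came below an NK library. Cd27 thus had a log2 fold change of -1.31 (SE 0.27, FDR = 0.019), which passed the threshold in 8 of the 12 fits with 1 library left out and missed it without NK KO library 2 (FDR = 0.054), NK KE library 1 (0.068), NK KE library 2 (0.054) or CD8 KO library 1 (0.056). Without the WT groups and NK KO library 1, the log2 fold change of Cd27 was -1.52. Cd70, the ligand of CD27, had 0 counts in 11 libraries and 11.2 CPM in CD8 KO library 2.

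Cd69 was at 624 and 360 CPM in WT, 276 and 360 CPM in KO and 438 and 250 CPM in KE CD8 libraries. In NK cells it was at 496 and 299 CPM in WT, 151 and 52.9 CPM in KO and 172 and 167 CPM in KE. WT NK and CD8 libraries overlapped, and all 4 mutant NK libraries lay below all CD8 libraries. The log2 fold change over genotypes, -0.99 (SE 0.28, FDR = 0.077), was not called. It was -1.80 and called without the WT groups and NK KO library 1 (FDR = 0.030), and -1.31 and called when NK KO library 1 alone was left out (FDR = 0.018).

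Itga1, the alpha chain CD49a and the usual RNA for residency in group 1 innate lymphocytes, did not separate the cell types (log2 fold change 0.14, SE 0.39, FDR = 1.0). It was at 46.6 and 20.0 CPM in WT, 123 and 104 CPM in KO and 95.4 and 130 CPM in KE NK libraries. The CD8 libraries had 33.2 and 80.5 CPM in WT, 21.0 and 83.0 CPM in KO and 93 and 123 CPM in KE. By group mean the order was NK KO (114 CPM), NK KE (113 CPM), CD8 KE (108 CPM), CD8 WT (56.9 CPM), CD8 KO (52.0 CPM) and NK WT (33.3 CPM), and the only neighbours whose libraries did not overlap were CD8 KE and CD8 WT.

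Itgae, the alpha chain CD103, was counted or at 0 by library in both cell types. It had no count in either WT NK library, 8.45 and 8.5 CPM in KO and 2.76 and 10.8 CPM in KE NK libraries. CD8 T cells had 47.2 and 14.8 CPM in WT, 0 in both KO libraries, and 41.3 CPM in KE library 1 but 0 in KE library 2. The groups with counts were at least 28.1-fold higher than the NK WT group and at least 86.2-fold higher than the CD8 KO group within their cell type, against the floor of 3 counts a library, except that the KE CD8 group holds its counts in 1 library. Cd8a in the 4 mutant NK libraries was 2.82 to 4.51 CPM, within the range of the WT NK libraries. The whole T cell list summed to 745 and 803 CPM in WT and 982 to 1183 CPM in mutant NK libraries, with Cd3e at 7.17 and 8.96 CPM and 9.93 to 51.7 CPM. DESeq2 called Cd3e, chosen after its values were seen, higher in the mutant NK libraries (mean log2 1.92, FDR = 0.0052), and the part of T cell RNA in the Itgae counts was not tested. Since Itgb7 is at 49.8 CPM or more in every library, the alpha chain is the scarcer chain of the pair at the RNA level: per kb of exon Itgae reached at most 12.3 CPM, and Itgb7 no less than 18.6.

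The other integrin chains put these levels in context. Of 22 chains outside the 8 genes, 14 were tested, and 3 were called higher and 0 lower in NK cells (5 and 0 at an unadjusted p under 0.05, which 9.35% of all genes reached higher and 9.92% lower), with a median log2 fold change of 0.45 beside 0.03 over all genes tested. Itgb1, the partner of Itga1 and Itga2, was at 1263 to 2440 CPM in NK and 542 to 837 CPM in CD8 libraries (log2 1.31, SE 0.11, FDR = 1.0e-04). The others were Itgax (log2 4.97, FDR = 0.0025), the alpha chain CD11c, and Itga5 (log2 7.54, FDR = 0.0074), a fibronectin receptor chain at 9.67 to 83.8 CPM in NK and at most 0.586 CPM in CD8 libraries. Without the WT groups and NK KO library 1, and so without the libraries rich in macrophage RNA, Itgb1 was called (1.37, FDR = 0.012), and Itgax (3.85, FDR = 0.11) and Itga5 (7.14, FDR = 0.10) were not. Itgal, which forms LFA-1 with Itgb2, ranged from 711 to 811 CPM in NK and from 578 to 1011 CPM in CD8 libraries, and Itgb2 from 522 to 1042 and from 714 to 1276 CPM. Itga4, the partner of Itgb7 in α4β7, ranged from 157 to 258 CPM in NK and from 77.0 to 306 CPM in CD8 libraries. Itgal, Itgb2 and Itga4 therefore overlapped between the cell types, and none was called.

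**Figure D3:**
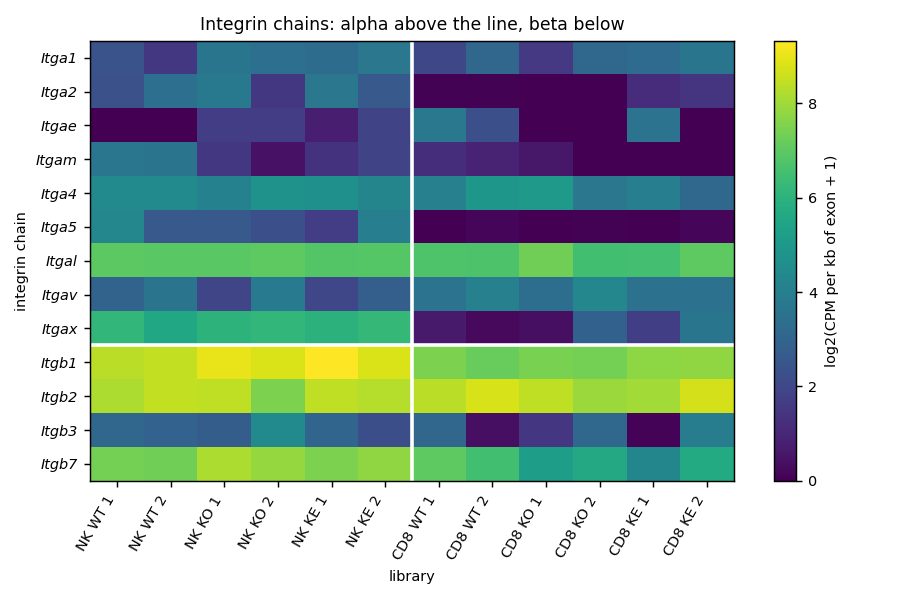
Colour gives log2(CPM per kb of exon + 1) for 13 integrin chains in the 12 libraries, alpha chains above the horizontal line and beta chains below it. Itgal, Itgb1 and Itgb2 are bright in all libraries, Itga2, Itga5 and Itgax are bright mainly in the 6 NK libraries, and Itgae is at 0 in 5 libraries. The length used for Itgam includes 3450 bases shared with Gm49368, so its level may be understated.

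Lists of genes that accompany these markers were read the same way, beside 1.97% of all genes called higher in NK and 2.5% in CD8 cells, 9.35% and 9.92% at an unadjusted p under 0.05, and 13% called by DESeq2. Of 16 tested genes associated with residency and ILC1, 3 were called higher in NK and 5 in CD8 cells (median log2 -0.36), among them Xcl1, a chemokine for cross-presenting dendritic cells, in NK (2.36, FDR = 0.0025), and Ltb (-1.73, FDR = 3.8e-04), Cd160 (-1.36, FDR = 0.0037) and Cxcr6 (-6.32, FDR = 0.019), a chemokine receptor of resident lymphocytes, in CD8 cells. Cxcr6 was at 2233 to 4250 CPM in CD8 libraries and from 2.82 to 120 CPM in NK libraries. Of 14 genes associated with mature circulating NK cells, 4 were called higher in NK and 1 in CD8 cells (median log2 1.21). Among them, Irf8 (1.98, FDR = 4.5e-04), S1pr5, which lets NK cells leave tissue (FDR = 0.0033), and Cma1 (FDR = 0.016) were higher in NK cells, and Ly6c2 (-2.46, FDR = 2.7e-05) in CD8 cells. No fold is given for S1pr5 and Cma1, which had CD8 groups at 0: S1pr5 ran from 7.28 to 100 CPM in NK libraries and reached 4.37 CPM in CD8 libraries, and Cma1 ran from 0.0837 to 52.2 CPM and reached 0.0741 CPM. Irf8 was called within WT (3.22, FDR = 0.0038), where the NK libraries held macrophage RNA, but not within KO (1.49, FDR = 0.13) or KE (1.24, FDR = 0.24). Of 9 genes of immature NK cells 3 were called in CD8 cells, Thy1 (-1.46, FDR = 2.5e-04), Ltb and the IL-7 receptor chain Il7r (-1.81, FDR = 0.044), and 0 in NK cells, where edgeR gave 3 an unadjusted p under 0.05 and DESeq2 called 1. Of 13 tested genes of TGF-beta signalling, which induces Itgae and Itga1 in lymphocytes, Smad3 was called higher in NK cells (1.55, FDR = 0.040). Of 10 tested genes of integrin activation none was called by edgeR, 3 were higher and 1 lower at an unadjusted p under 0.05, and DESeq2 called 1 higher. Without the WT groups and NK KO library 1, Ltb, Ly6c2, Thy1, S1pr5 and Cma1 were called in the same direction (FDR from 0.0069 to 0.0495). In that fit Xcl1 (1.24, FDR = 0.28), Irf8 (1.47, FDR = 0.070), Smad3 (1.22, FDR = 0.34), Cd160 (-1.22, FDR = 0.067), Cxcr6 (-5.45, FDR = 0.086) and Il7r (-0.66, FDR = 0.59) were not called.

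The second question was whether TYK2 loss or kinase inactivity shifted these markers within a cell type. edgeR called 0 of the 8 genes in KO against WT, KE against WT, or the mean of both against WT, in NK or in CD8 cells, beside 0% of all genes for KO and for KE in NK, 0.0301% for the mean in NK, and 0.0527%, 0.0828% and 0.203% in CD8. At an unadjusted p under 0.05, the mean of both mutants had 2 genes higher and 1 lower in NK cells and 0 higher and 3 lower in CD8 cells, beside 2.18% and 6.85% of all genes in NK and 2.37% and 4.35% in CD8. DESeq2 called 1 higher (Itgae) and 1 lower (Cd69) in NK and 0 higher and 3 lower (Itgb7, Itgae and Itgam) in CD8 for the same mean, beside 1.29% and 2.78% of the genes it gave an FDR in NK and 1.31% and 1.53% in CD8. The KO and KE comparisons share the WT libraries, so their agreement is not independent.

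Cd69 had the lowest FDR of the 8 genes in NK cells for KO and for the mean of both mutants, and for KE it shared the lowest with Itgae and Itga1. All 4 mutant NK libraries, from 52.9 to 172 CPM, lay below both WT libraries at 496 and 299 CPM. The log2 fold change was -1.96 for KO (SE 0.50, FDR = 0.57 by edgeR), -1.23 for KE (SE 0.49, FDR = 0.79) and -1.60 for their mean (SE 0.40, FDR = 0.25). DESeq2 called the KO value and the mean (FDR = 0.0063 and 0.0091), and it called 3.3% of all genes for KO in NK. The edgeR value ranged from -2.91 to -1.42 for KO and from -1.57 to -0.82 for KE when 1 library was left out. For CD8 T cells the mean was -0.57 (SE 0.41, FDR = 0.84) with overlapping libraries, and the difference between the cell types, -1.02 (SE 0.60, FDR = 0.95), was not called. The shift in NK cells runs alongside the macrophage marker sum, which was 17964 CPM or more in the WT and 8190 CPM or less in the mutant NK libraries, and its part in the result was not tested. NK KO library 1, at 8190 CPM of these markers, had Cd69 at 151 CPM. The other 3 mutant NK libraries, at 224 to 652 CPM of markers, had it at 52.9 to 172 CPM. S1pr1, the receptor CD69 removes from the surface, was at 57.3 and 4.16 CPM in WT and 60.9 to 197 CPM in mutant NK libraries (mean log2 2.23, FDR = 0.50).

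Itga1 lay higher in all 4 mutant NK libraries, 95.4 to 130 CPM, than in both WT libraries, 46.6 and 20.0 CPM. The difference on the log2 scale was 1.77 for KO (SE 0.70, FDR = 0.77), 1.76 for KE (SE 0.70, FDR = 0.79) and 1.76 for the mean (SE 0.65, FDR = 0.46). In CD8 cells it was 0.40 (SE 0.60, FDR = 1.0). The macrophage marker sum moved the other way in the NK libraries, at 19501 and 17964 CPM in WT and 224 to 8190 CPM in mutants, and the NK marker Ncr1 moved with Itga1, at 843 and 934 CPM in WT and 1230 to 2298 CPM in mutants (mean log2 1.06, FDR = 0.14 by edgeR, called by DESeq2 with FDR = 0.0015). Their part in the Itga1 values was not tested. Of the 8 genes, 3 were higher in all 4 mutant than in both WT NK libraries (Itga1, Itgae and Itgb7) and 2 lower (Itgam and Cd69), where 7.08% and 10.8% of all genes do so. Among these 5 genes, Itgae had no count in WT, and Itgam was high only in the WT libraries with macrophage RNA.

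**Figure D4:**
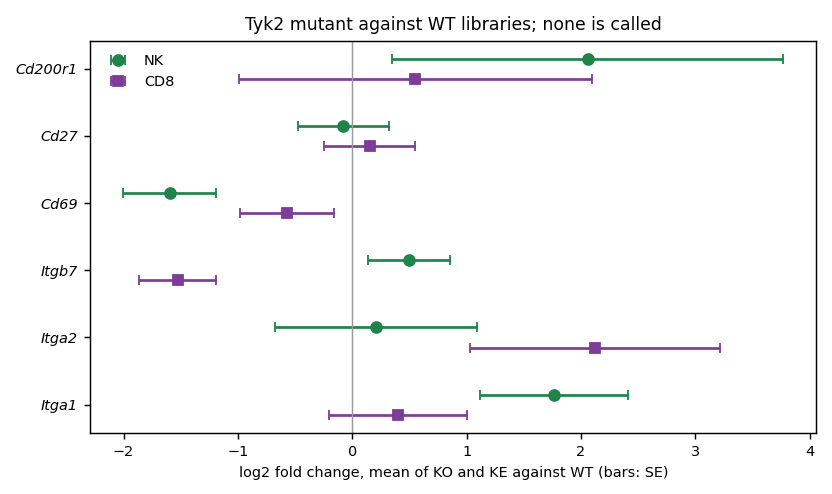
log2 fold change of the mean of KO and KE against WT, with the SE as bars, in NK (circles) and CD8 (squares) libraries, for the 6 genes with counts in every group. Cd69 in NK and Itgb7 in CD8 cells lie furthest from 0 relative to their SE, Itgb7 lies on opposite sides of 0 in the 2 cell types, and edgeR called none.

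Itgb7 differed from WT in opposite directions in the 2 cell types. In CD8 T cells all 4 mutant libraries, 49.8 to 138 CPM, were below both WT libraries at 346 and 243 CPM, with a log2 fold change of -1.41 for KO (SE 0.41, FDR = 0.87), -1.65 for KE (SE 0.41, FDR = 0.39) and -1.53 for the mean (SE 0.34, FDR = 0.22 by edgeR). With CD8 KE library 2 left out the mean was -1.99 and edgeR called it (FDR = 0.018). In NK cells all 4 mutant libraries, 480 to 772 CPM, were above both WT libraries at 441 and 421 CPM, with a mean log2 fold change of 0.50 (SE 0.36, FDR = 0.80). As for Itga1, these WT NK libraries held 17964 CPM or more of macrophage markers and the mutants 8190 CPM or less, with Ncr1 higher in the mutants, and the part of either in the NK values was not tested. DESeq2 called both CD8 values (FDR = 0.045 in KO and 0.0064 in KE) and their mean (FDR = 0.0024), beside 1.99% of all genes for KO and 2.86% for KE. The difference between NK and CD8 cells was 2.02 (SE 0.50, FDR = 0.52 by edgeR), and DESeq2 called it (FDR = 0.0093). For that difference edgeR called 0.0151% of all genes and DESeq2 2.28%. Macrophage marker sums in the CD8 libraries, 536 and 833 CPM in WT and 329 to 1025 CPM in mutants, overlapped between genotypes. Itga4, the other chain of α4β7, was at 152 and 292 CPM in WT and 77.0 to 306 CPM in mutant CD8 libraries.

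Itgam was lower in mutants in both cell types by library. In NK cells the WT group was 10.3-fold higher than KO (counting interval 8.66 to 12.3) and 5.11-fold higher than KE (4.47 to 5.85), and the mean log2 fold change was -2.86 (SE 1.38, FDR = 0.59). The macrophage markers were lower in the same libraries: 13 of 14 were lower in the mutant NK libraries at an unadjusted p under 0.05, as were 6.85% of all genes (median log2 -4.94), and Csf1r, a defining macrophage receptor, was at 292 and 302 CPM in WT and 0.156 to 27.6 CPM in mutant NK libraries. NK KO library 1 departed from the rest, with Lyz2 at 3376 CPM, above both WT libraries, but Csf1r at 0.156 CPM and Itgam at 9.23 CPM. The part of macrophage RNA in the Itgam values was not tested, and it and a change within NK cells cannot be told apart here. In CD8 cells Itgam was at 6.45 and 4.28 CPM in WT and at most 2.53 CPM in mutants. With Itgb7 it was 1 of 2 genes lower in all 4 mutant than in both WT CD8 libraries, as were 7.49% of all genes, and 0 were higher, as were 6.79%.

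**Figure D5:**
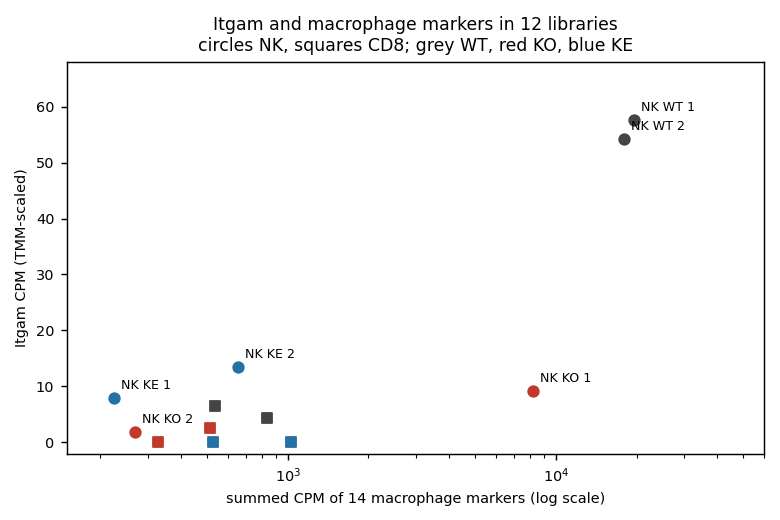
Itgam CPM against the summed CPM of 14 macrophage markers on a log axis, 1 point a library, circles for NK and squares for CD8 cells. The 2 WT NK libraries lie at the upper right with 54.3 and 57.7 CPM, NK KO library 1 lies low at 8190 CPM of markers, and the other 9 libraries have 1025 CPM of markers or less and at most 13.4 CPM of Itgam.

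Itga2 was not called between genotypes in NK cells (mean log2 0.21, SE 0.89, FDR = 1.0), where the 2 libraries of each group differed more than the group means. In CD8 T cells it had 4 and 3 counts (WT), 2 and 1 counts (KO), and 110 and 161 counts (KE), so the KE libraries stood apart from both other groups. The ratio of KE to WT was 41.0 (counting interval 19.6 to 103), the log2 fold change 5.29 (SE 1.25, FDR = 0.30 by edgeR), and DESeq2 called it (FDR = 6.2e-04). The NK marker Klrb1c was at 1.41 and 5.05 CPM and Ncr1 at 1.32 and 1.03 CPM in those KE libraries, against 2.30 and 2.32 CPM and 1.63 and 1.52 CPM in WT, so Klrb1c was above both WT libraries in 1 of the 2 KE libraries and Ncr1 in neither. All 10 NK markers summed to 1251 and 1505 CPM in WT and 1279 and 1885 CPM in KE CD8 libraries, and DESeq2 called 1 of them, Klri2, higher in KE (log2 3.11, FDR = 1.1e-04). The part of NK RNA in these Itga2 counts was not tested. Cd27 and Cd200r1 gave mean log2 fold changes of -0.08 (SE 0.40) and 2.06 (SE 1.71) in NK and 0.15 (SE 0.40) and 0.55 (SE 1.54) in CD8 cells (FDR = 0.875 or more), with overlapping libraries in all 4 cases.

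KO and KE were also compared with each other. edgeR called none of the 8 genes in either cell type, where it called 0% of all genes, and in NK cells 0 of the 8 had an unadjusted p under 0.05, beside 1.75% of genes higher and 2.04% lower. In CD8 cells 1 gene was higher and 2 were lower at that level, namely Itgam (34 counts in KO and 0 in KE) above, and Itga2 (3 against 271 counts) and Itgae (0 against 499 counts) below, beside 1.94% and 1.68% of all genes. DESeq2 called the last 2, beside 1.34% of all genes. All 499 Itgae counts were in CD8 KE library 1, and 33 of the 34 Itgam counts were in CD8 KO library 1.

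Related lists in the mutants were read on the mean of both against WT. In NK cells 0 of 16 residency genes were called by edgeR, and 5 were higher and 2 lower at an unadjusted p under 0.05 (median log2 0.55 beside -0.05 over all genes), while DESeq2 called 2 higher and 1 lower. Over all genes 2.18% were higher and 6.85% lower at that level, and DESeq2 called 1.29% higher and 2.78% lower. Of 14 genes of mature circulating NK cells 0 were called, and 1 was higher and 5 lower at that level (median -0.35), and of 9 genes of immature NK cells 0 were called, and 4 were higher and 1 lower (median 0.66). DESeq2 called 0 of the mature and 1 of the immature genes, which was higher. In the mutant NK libraries the macrophage marker sum was lower and the T cell marker sum and Ncr1 were higher, as given above. Their part in the values of these lists was not tested. Cd160, a receptor of the residency list, came closest to a call (log2 2.00, FDR = 0.082). Among the 5 lower genes of mature cells, Cx3cr1, Zeb2 and Irf8 are also expressed by myeloid cells, and the part of macrophage RNA was not tested. Cx3cr1 was at 331 and 259 CPM in WT, 62.7 CPM in NK KO library 1 and at most 15.7 CPM in the other mutants. In CD8 cells, where edgeR called 0.203% of all genes, 1 of 16 residency genes was called higher and 0 lower (median log2 -0.20), 0 of 14 mature genes higher and 1 lower (median -0.46), and 0 of 9 immature genes in either direction, with 0 higher and 2 lower at an unadjusted p under 0.05 and 0 called by DESeq2 (median -0.17). Xcl1 was the residency gene called higher (log2 3.96, FDR = 0.032), at 21.3 and 32.6 CPM in WT and 193 to 1422 CPM in mutants, and Ly6c2, a marker of circulating and memory CD8 T cells, was the mature gene called lower (log2 -1.90, FDR = 0.019), at 4740 and 2885 CPM in WT and 600 to 1588 CPM in mutants.

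Genes with the most similar pattern were sought over the 6 libraries of the cell type with the higher level. For Itgb7 these were St6galnac4 and Dcaf8 (Pearson r of 0.97 and 0.97 over 6 NK libraries), for Itga1 Arfrp1 and Lsm1 (0.99 and 0.99), for Itga2 Nol6 and Fadd (0.99 and 0.98) and for Itgam Ly6e and Ankfy1 (0.99 and 0.99). Over 6 CD8 libraries they were Pde3b and Trpm7 for Cd69 (0.99 and 0.98), Smug1 and Def6 for Cd27 (0.99 and 0.99), Vps9d1 and Arf3 for Cd200r1 (0.99 and 0.99) and Trbv13-3 and Slc35d1 for Itgae (1.0 and 0.98). With 6 points, which share depth and library quality, 37 to 144 of the 8144 or 8332 genes compared reached an r over 0.9 with each of the 8 genes, so these values are a description only.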

How the data were processed

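Per the labels and the study's methods, the authors sorted 300 cells a library, used Trimmomatic on 50-base single-end reads and STAR on mm10/GRCm38, and deposited raw counts of uniquely aligned reads in exons per Ensembl gene, with no normalisation. Totals were 10378761 to 14732882 counts a library, and intervals on counts cover counting error only. Here, 153 genes without a symbol were kept in totals. Genes with a mean TMM-normalised count of at least 10 (13279) were fitted with edgeR 4.0.16 (R 4.3.3), robust quasi-likelihood, with 6 group means over all 12 libraries, and the Benjamini-Hochberg FDR was taken over all of them. The SE is the log2 fold change divided by the root of F. Alternatives were DESeq2 1.42.0, other size factors and filters, fewer libraries and a replicate block. The script was tested on simulated data with less spread between libraries than was estimated here, so that test checks the code only. The 8 genes and all lists were chosen with earlier results of these data known, so no p-value adjusted over a list is given. Named were the 8 genes, the chains Itgb1, Itgb2, Itga4 and Itgal, of other lists at most 4 called genes a comparison by smallest FDR, the 3 most abundant genes of each marker list of other cell types, and the 2 genes of closest pattern. Ligands, S1pr1, Cx3cr1, Csf1r, Cd160 and markers named beyond this rule were chosen after their values were seen. A called gene that this rule would name is not reported here. Lengths for CPM per kb come from GENCODE gene models of GRCm38. Promoters are from RefSeq.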

Additional observations from a re-analysis of the deposited data

Results flagged for a closer look

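Itgb7 was flagged because its direction differed between the cell types: it lay higher in all 4 mutant than in both WT NK libraries and lower in all 4 mutant than in both WT CD8 libraries. The mean effect of the mutants differed by 2.02 on the log2 scale (NK minus CD8, SE 0.50, FDR = 0.52 by edgeR's quasi-likelihood test, not called, and FDR = 0.0093 by DESeq2). It stayed between 1.74 and 2.48 when any library was left out. The flag was raised from these same libraries, so neither the difference nor this range is separate support for it. How many of all genes separate in this way was not counted. The WT NK libraries in this difference held 17964 CPM or more of macrophage markers and the mutant NK libraries 8190 CPM or less, and their part in it was not tested.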

How the results depend on the processing

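Fitted values of the 8 genes were recomputed in 660 alternatives, of which 566 kept direction and side of the threshold, 57 lost a call, 17 gained one and 20 changed sign. All sign changes were of values that were not called. Itga2 and Itgb7 averaged over genotypes stayed called in every alternative except, for Itga2, the one without the WT groups and NK KO library 1 (4.61, FDR = 0.051). The cause of the changes below was not tested, apart from the smaller number of libraries where some were left out.

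DESeq2 called more genes than edgeR: NK against CD8, 827 in WT, 810 in KO, 809 in KE and 1590 on average, against 103, 120, 93 and 594. In NK it called 379 for KO, 386 for KE, 204 for KO against KE and 457 for the mean of both mutants (edgeR 0, 0, 0 and 4). In CD8 it called 234, 328, 157 and 326 (edgeR 7, 11, 0 and 27), and for the difference between cell types 198 in KO, 278 in KE and 267 on average (edgeR 1, 0 and 2). With no filter on low counts edgeR called 537, 524, 498 and 1231 genes in NK against CD8, then 195, 256, 96 and 374 in NK, 124, 185, 82 and 209 in CD8, and 131, 194 and 180 for the difference. Without the filter Cd69 was called in NK (mean -1.60, FDR = 2.5e-05) and Itgb7 in CD8 (mean -1.53, FDR = 4.6e-05). With only the libraries of a cell type or genotype the counts were 41 (KO) and 51 (KE) in NK against CD8, 2 for the mean in NK, and 0 for KO, KE and their mean in CD8. None of the 4 calls within a genotype held there: FDR = 0.097 and 0.19 for Itga2 in WT and KO, and 0.054 and 0.24 for Itgb7 in KO and KE. Without the WT groups and NK KO library 1, an alternative chosen after seeing the data, 243 genes were called in NK against CD8.

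Libraries 1 and 2 carry the same numbers in every group, but differences between numbers did not run together (r from -0.025 to 0.038 over 15 pairs of groups). With the replicate block 1 gene was called for the mean in NK, 3, 4 and 17 for KO, KE and the mean in CD8, and 0 for the KO difference between cell types. Cd69 in NK against CD8 was then called (FDR = 0.045), Cd200r1 and Itgam were not (FDR = 0.091 and 0.052), nor were Itga2 in WT (0.061) and Itgb7 in KE (0.054). The mean effect on Itga2 in NK was -0.082 instead of 0.21. With filterByExpr Cd200r1 was not called (FDR = 0.051).

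With 1 library left out, where the lone library is assumed to vary like the other groups, genes called in NK against CD8 ranged from 49 to 128 in WT, 65 to 125 in KO, 33 to 112 in KE and 403 to 553 on average. In NK they ranged from 0 to 5 for KO, 0 to 11 for KE, 0 to 1 for KO against KE and 0 to 25 for the mean. In CD8 they ranged from 1 to 13, 0 to 8, 0 to 1 and 4 to 28, and for the difference from 0 to 3 in KO, 0 to 2 in KE and 0 to 4 on average. Log2 values that changed sign ranged from -0.12 to 0.57 for Itga1 in NK against CD8, -0.29 to 1.17 for Itga1 in CD8 mutants, -0.77 to 0.94 for Itga2 in NK mutants, -0.77 to 4.57 for Cd200r1 in NK and -0.16 to 2.02 in CD8 mutants, -0.54 to 0.56 for Cd27 in NK and -0.37 to 0.97 in CD8 mutants, and for the difference between cell types -1.30 to 4.04 for Cd200r1 and -1.05 to 0.45 for Cd27.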
